A study of Capra hircus with 90 samples.

Results

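UQCRQ, UQCR11, COX5B, COX6B1 and COX17 are nuclear genes of the mitochondrial respiratory chain, and their transcript levels were followed in the brainstem of goats that breathed CO2. UQCRQ (ENSCHIG00000017488) and UQCR11 (ENSCHIG00000008372) encode small subunits of complex III. COX5B (ENSCHIG00000016607) and COX6B1 (ENSCHIG00000023112) encode subunits of complex IV, and COX17 (ENSCHIG00000026140) encodes no subunit but the chaperone that brings copper to complex IV. These 5 genes were taken from the 238 symbols that could be linked to the 25144 Ensembl goat genes of the count table. A symbol was linked where the mean abundance in the authors' deposited tables equalled that of 1 gene in a refit of the counts.

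Complex III, the cytochrome bc1 complex, takes electrons from ubiquinol and hands them to cytochrome c, and complex IV, cytochrome c oxidase, passes them on to oxygen. Both pump protons across the inner mitochondrial membrane, and the ATP synthase uses the resulting gradient. The catalytic cores are partly encoded in mitochondrial DNA, as with COX1, while the small subunits that surround them are encoded in the nucleus and imported. Neurons make most of their ATP in this way, and cytochrome oxidase staining is an established marker of how active a brain nucleus is.

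Bulk RNA was sequenced from brainstem punches of adult (at least 2 years old), outbred female goats of mixed dairy breeds, none genetically altered, in a study of adaptation to chronic hypercapnia. The exposures were 3 h of 6% inspired CO2, 24 h of 6% CO2 and 24 h of room air, which were handled as batch 1, and 7 d of 6% CO2 and 7 d of room air, which were handled as batch 2, each with 6 goats. Every goat gave punches of the nucleus of the solitary tract (NTS), where nerve fibres of the lungs and peripheral chemoreceptors end, of the ventral respiratory column (VRC), where the breathing rhythm arises, and of the retrotrapezoid nucleus (RTN), which senses CO2. Measured rostrally from the obex, the NTS punch covered 0 to 2 mm, that of the VRC 2 to 4 mm and that of the RTN 8 to 10 mm. This makes 15 groups and 90 libraries. Room air for 3 h was not part of the design, so the 3 h goats were set against the 24 h room-air goats, and batch and duration change together between the 24 h and 7 d groups.

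Mean totals per group lay between 18.9 and 28.5 M counts, and the shallowest libraries were a VRC library after 24 h of CO2 (5.46 M) and an NTS library after 3 h of CO2 (9.64 M). In the NTS of batch 1, 5 libraries stood apart on the first principal component, which held 26% of the variance: number 5 after 24 h of CO2, numbers 5 and 6 after 3 h of CO2 and numbers 5 and 6 in room air. The punches were not checked against defining markers of the 3 nuclei. A punch holds many cell types, and fewer cells of a type and less RNA per cell cannot be told apart in these data. Over the 90 libraries the median count was 10628 for COX5B, 7548 for COX6B1, 5317 for UQCRQ and 1848 for COX17. UQCR11 had a median of 320 counts and a lowest count of 92, so its values carry the largest counting error. Short nuclear genes of this kind can have processed copies elsewhere in a genome, and how reads with several matches were counted is not given in the sources used here, which leaves their levels uncertain.

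The genes carry a symbol because the authors listed them among 180 genes of the NTS at 24 h, so that contrast chose them and is given as a description. In the authors' deposited table of that contrast 155 entries are lower after CO2 and 25 higher, and all 5 genes are among the lower ones. The authors' deposited table gives log2 fold changes of -0.60 for UQCRQ, -0.82 for UQCR11, -0.51 for COX5B, -0.55 for COX6B1 and -0.81 for COX17. Its entries reach down to an absolute log2 fold change of 0.501 and up to an FDR of 0.0499, and COX5B, with an FDR of 0.0381 in the authors' deposited table, lay nearest to both limits. None of the 5 genes is an entry of the authors' deposited tables for another site or time.

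In the NTS the 5 genes were lower after 24 h of CO2 than in room air, by 0.50 to 0.81 on the log2 scale, as were 47.4% of all genes without any threshold. Levels are CPM, counts scaled to a common library total with TMM normalisation factors, given as the lowest, median and highest of 6 libraries. UQCRQ, a ubiquinone-binding protein of complex III, had 148, 159 and 178.5 CPM after 24 h of CO2, against 178, 238 and 338 CPM in room air. All but 1 of its 36 pairs of a CO2 and a room-air library had the CO2 library lower, yet the groups overlapped at their edges. UQCR11, a small subunit of complex III, had 7, 10.4 and 16.9 CPM after CO2, against 15.3, 16.9 and 33.2 CPM in room air. Its CO2 library of highest level reached the range of room air.

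COX5B, a zinc-binding subunit on the matrix side of complex IV, had 298, 309 and 399 CPM after 24 h of CO2 in the NTS, against 351, 437.5 and 717 CPM in room air. COX6B1, a subunit that faces the intermembrane space and joins the monomers of the complex IV dimer, had 207, 217 and 265 CPM after CO2, against 246, 323.5 and 474 CPM in room air. COX17 had 39.3, 52.5 and 83.9 CPM after CO2, against 75.0, 84.5 and 185 CPM in room air. For each of these genes 1 room-air library, number 6, lay far above the rest, and the CO2 and room-air libraries overlapped. No member separated the groups fully, where 0.86% of 16630 genes had all CO2 libraries below all room-air libraries.

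On the log2 scale the change of the NTS after 24 h of CO2 against room air was -0.59 for UQCRQ (SE 0.12), -0.81 for UQCR11 (SE 0.23), -0.50 for COX5B (SE 0.13), -0.54 for COX6B1 (SE 0.12) and -0.80 for COX17 (SE 0.24; n = 6 each). The median of the 5 was -0.59, beside 0.014 over all 15605 genes tested. Without room-air number 6 it was -0.47, and without the 5 libraries that stood apart it was -0.58. With edgeR's quasi-likelihood test on the 18 NTS libraries of batch 1, 0% of all genes passed an adjusted p of 0.05 in this contrast and 10.2% had an unadjusted p under 0.05.

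After 3 h of CO2 the NTS median of each gene lay between those of room air and of 24 h of CO2. UQCRQ had 172, 182 and 205 CPM, COX5B 334, 354 and 368 CPM, and COX6B1 227, 259 and 284 CPM after 3 h. UQCR11 had 10.6, 15.2 and 17.4 CPM and COX17 48.2, 70.9 and 81.8 CPM. Set against the same 24 h room-air libraries, the log2 changes were -0.39 for UQCRQ (SE 0.12), -0.41 for UQCR11 (SE 0.23), -0.41 for COX5B (SE 0.13), -0.38 for COX6B1 (SE 0.12) and -0.60 for COX17 (SE 0.24; n = 6 each). The median of -0.41 became -0.24 without room-air number 6 and -0.33 without the 5 libraries that stood apart. These contrasts share their room-air libraries with the one that chose the genes, so the 3 h values are a description too. All 5 changes were below 0, where 46.7% of all genes were, and 6.75% of all genes had an unadjusted p under 0.05.

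Within the CO2 exposures of the NTS, all 5 genes were lower at 24 h than at 3 h, by a median of -0.19 on the log2 scale. The differences were -0.39 for UQCR11 (SE 0.23), -0.21 for COX17 (SE 0.24), -0.19 for UQCRQ (SE 0.12), -0.17 for COX6B1 (SE 0.12) and -0.09 for COX5B (SE 0.13; n = 6 each). Those of COX17 and COX5B were smaller than their SE, and both moved with single libraries of 24 h. That of COX5B was -0.15 without number 1 and -0.061 without number 6, and that of COX17 was -0.34 without number 5 and -0.12 without number 2. No p is given because the 24 h libraries chose the genes.

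**Figure D1:**
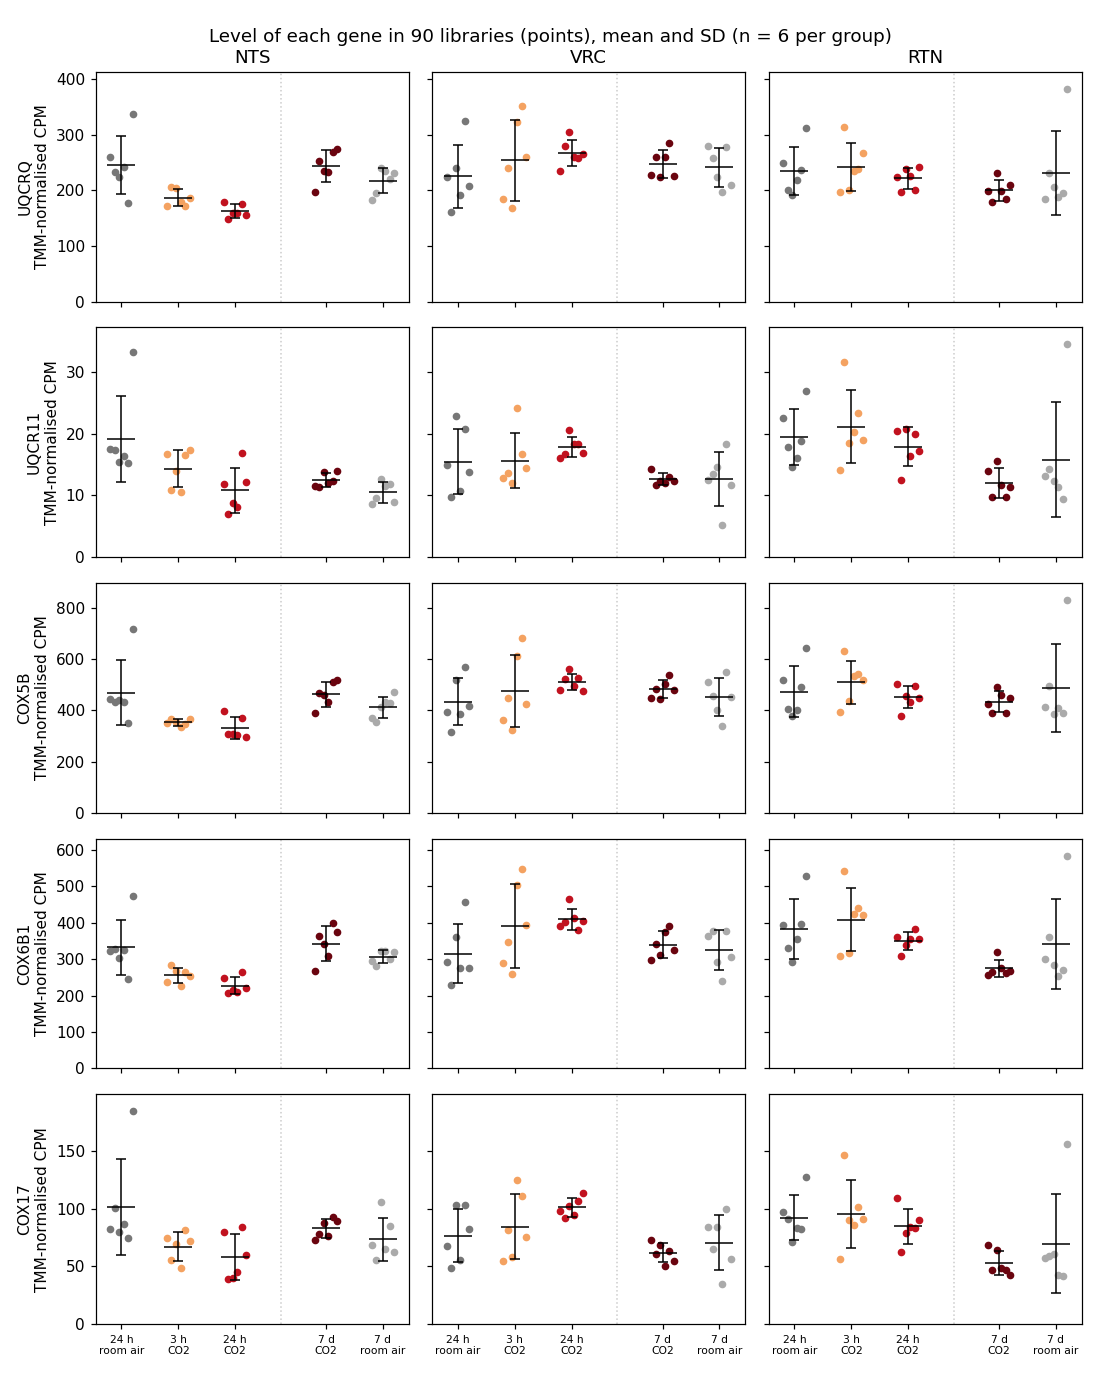
Level of each gene (rows, TMM-normalised CPM, axes from 0) in single libraries (points) of the NTS, VRC and RTN (columns) by exposure, with the mean and SD of 6 libraries as bars. In the NTS UQCRQ lay at 148 to 178.5 CPM after 24 h of CO2, the lowest of its 15 groups, and room-air number 6 of the NTS and 7 d room-air number 6 of the RTN lay above the other points of their groups.

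The 7 d goats took no part in the choice of the genes, so their values were tested. The 5 genes were not lower in the NTS after 7 d of CO2: each was higher than in 7 d room air, by 0.16 to 0.24 on the log2 scale, and none passed the test. Of all genes, 47.5% had a change above 0 there. UQCRQ had 197, 244 and 274 CPM after 7 d of CO2, against 183.5, 225 and 239 CPM in room air. COX5B had 389.5, 465 and 519 CPM after CO2, against 356, 420 and 471 CPM in room air. The groups overlapped broadly, and the CO2 library was the lower one in 7 to 9 of 36 pairs for each gene.

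The log2 changes of the NTS at 7 d were 0.16 for UQCRQ (SE 0.10), 0.24 for UQCR11 (SE 0.13), 0.17 for COX5B (SE 0.10), 0.16 for COX6B1 (SE 0.10) and 0.17 for COX17 (SE 0.14; n = 6 each). By edgeR's quasi-likelihood test with Benjamini-Hochberg adjustment 0 of the 5 genes passed 0.05, where 0.00653% of 15311 genes did, and their adjusted p lay between 0.651 and 0.758. At an unadjusted p under 0.05 there was again 0 of the 5, where 8.02% of genes were, and DESeq2 and limma voom called 0. The interval of 2 SE around the change ran between -0.033 and 0.36 for UQCRQ, and that of COX6B1 between -0.038 and 0.35. Time and batch cannot be told apart where these values are set beside those at 24 h.

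In the VRC the 5 genes were higher after 24 h of CO2 than in room air, by 0.25 to 0.42 on the log2 scale, where 50.4% of all genes were higher, and none passed the test over all genes. COX6B1 had 380, 403 and 464 CPM after 24 h of CO2, against 229, 285 and 456 CPM in room air. COX17 had 91.9, 100.2 and 114 CPM after CO2, against 48.8, 75.0 and 103 CPM in room air. For both genes the CO2 libraries lay close together at the upper end of the room-air range, and the highest of them lay above it.

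UQCRQ in the VRC had 234, 263 and 305 CPM after 24 h of CO2, against 161, 216 and 325 CPM in room air, and COX5B had 477, 510 and 560 CPM, against 316.5, 406.5 and 570 CPM in room air. UQCR11 had 16.1, 17.6 and 20.6 CPM after CO2, against 9.78, 14.4 and 22.8 CPM in room air. In each case the CO2 libraries fell inside the room-air range. The log2 changes were 0.39 for COX6B1 (SE 0.17), 0.42 for COX17 (SE 0.20), 0.26 for UQCRQ (SE 0.17), 0.25 for UQCR11 (SE 0.19) and 0.25 for COX5B (SE 0.16; n = 6 each).

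With edgeR's quasi-likelihood test 0 of the 5 genes passed an adjusted p of 0.05 in the VRC at 24 h, where 0.817% of 15424 genes did, and the adjusted p lay between 0.333 and 0.636. COX6B1 (unadjusted p = 0.0301, edgeR) and COX17 (unadjusted p = 0.0469, edgeR) were under 0.05 before adjustment, as were 12.8% of all genes. DESeq2 and limma voom called 0 of the 5. Without the library of lowest depth, which is of the CO2 group, the median change was 0.27, beside 0.26 with it.

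After 3 h of CO2 the VRC levels were spread widely, and the changes against room air were smaller than at 24 h. COX6B1 had 259, 371 and 547 CPM after 3 h, against the same room-air values as above, with a log2 change of 0.32 (SE 0.17, n = 6 each). The changes of the other 4 lay between 0.052 for UQCR11 and 0.19 for UQCRQ. All 5 were above 0, as were 49.4% of all genes. These values rested in part on single libraries: without number 5 of the 3 h group COX6B1 was at 0.19 and COX5B at 0.0059, and without number 4 COX17 was at 0.0085 and UQCR11 at -0.12. By edgeR's quasi-likelihood test 0 of the 5 passed 0.05, where 0.013% of genes did, with adjusted p of 0.426 to 0.929. At an unadjusted p under 0.05 there was 0 of the 5, where 13% of genes were, and DESeq2 and limma voom called 0.

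The 24 h against 3 h difference of CO2 in the VRC had a median of 0.11, with 0 of 5 called by edgeR where 0% of all genes were, 0 at an unadjusted p under 0.05, where 7.05% were, and 0 by DESeq2. That median was 0.015 without number 3 and 0.21 without number 5 of the 3 h group. At 7 d the VRC showed values on both sides of 0 among the 5 genes. The changes were 0.096 for COX5B (SE 0.11), 0.062 for COX6B1 (SE 0.11), 0.034 for UQCRQ (SE 0.10), -0.0058 for UQCR11 (SE 0.21) and -0.19 for COX17 (SE 0.20; n = 6 each). COX17 had 50.4, 62.2 and 72.8 CPM after 7 d of CO2, against 34.6, 74.7 and 100 CPM in room air. The CO2 libraries lay within the room-air range, and by edgeR 0 of the 5 passed 0.05, where 0% of 15179 genes did, with 0 at an unadjusted p under 0.05, where 6.56% of genes were, and 0 by DESeq2 and limma voom.

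In the RTN none of the 5 genes passed the test at any time. After 3 h of CO2 the 5 genes were 0.037 to 0.11 higher than in room air on the log2 scale, after 24 h the changes were -0.13 to -0.065, and after 7 d they were -0.40 to -0.17. Of all genes, 49.1% were above 0 at 3 h, 50.3% below 0 at 24 h and 51.1% below 0 at 7 d. By edgeR's quasi-likelihood test 0 of the 5 passed 0.05 at 3 h, where 0.0129% of genes did, and 0 at 24 h and at 7 d, where 0% did. At an unadjusted p under 0.05 there was 0 of the 5 at each time, where 6.92% of genes were at 3 h, 6.47% at 24 h and 3.26% at 7 d, and DESeq2 and limma voom called 0. The 24 h against 3 h difference in the RTN had a median of -0.17 with 0 called by edgeR, where 0% of genes were, 0 at an unadjusted p under 0.05, where 8.98% were, and 0 by DESeq2. That median was -0.07 without number 2 and -0.27 without number 1 of the 3 h group.

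The RTN values at 7 d rested on 1 library. COX5B had 390, 436 and 493 CPM after 7 d of CO2, against 387, 411.5 and 830 CPM in room air, and COX17 had 42.7, 48.0 and 68.4 CPM after CO2, against 42.0, 58.4 and 156 CPM in room air. The highest room-air value of all 5 genes belonged to number 6. Without it the median change was -0.00018, beside -0.32 with it, and COX6B1 alone stayed below -0.05, at -0.097. The small changes at 3 h and 24 h also moved with single libraries. The median at 24 h was 0.0019 without room-air number 6, beside -0.11 with it, while COX6B1 and COX17 stayed below 0 at -0.015 and -0.0087. The median at 3 h was -0.037 without number 2 of the CO2 group and 0.20 without room-air number 6, beside 0.088 with all libraries, and COX5B stayed above 0 without number 2, at 0.024.

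**Figure D2:**
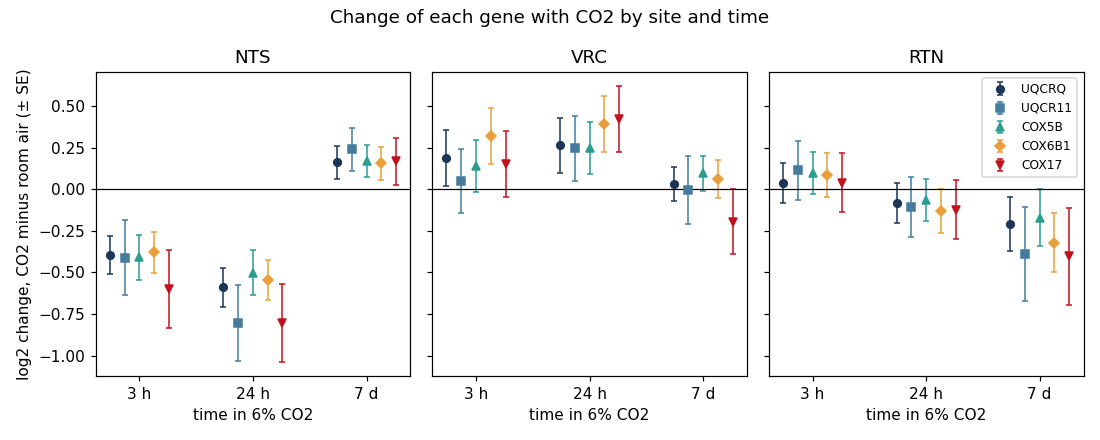
Log2 change of CO2 against room air (y axis) with its SE for each gene at 3 h, 24 h and 7 d (x axis) in the NTS, VRC and RTN. The changes of the 5 genes lay between -0.81 and -0.50 in the NTS at 24 h, between 0.25 and 0.42 in the VRC at 24 h, and between 0.16 and 0.24 in the NTS at 7 d.

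Whether the effect of CO2 differed between sites was tested within goats, with the goat as a block, where the genes had not been chosen on the values compared. Each fit held all 3 sites of its batch. At 3 h and 24 h the NTS libraries that chose the genes thus still entered the goat blocks and the estimates of spread. The VRC and RTN libraries of 24 h room air and 24 h of CO2 came from the same goats as those NTS libraries. This also holds for the batch 1 tests within the VRC and the RTN above. At 24 h the VRC effect exceeded the RTN effect by a median of 0.34 on the log2 scale. The differences were 0.55 for COX17 (SE 0.29), 0.50 for COX6B1 (SE 0.19), 0.34 for UQCR11 (SE 0.29), 0.33 for UQCRQ (SE 0.19) and 0.30 for COX5B (SE 0.18), with 6 goats per exposure. By edgeR's quasi-likelihood test 0 of the 5 passed an adjusted p of 0.05, where 1.13% of 16339 genes did, and DESeq2 called 0. COX6B1 had an unadjusted p of 0.0135 and an adjusted p of 0.312 by edgeR. It was the only one of the 5 with an unadjusted p under 0.05, where 10.2% of all genes were. At 3 h the VRC and RTN effects differed by a median of 0.097, with 0 of 5 called by edgeR where 0.753% of genes were, 0 at an unadjusted p under 0.05, where 7.95% were, and 0 by DESeq2.

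At 7 d the NTS effect exceeded the RTN effect by a median of 0.41, the VRC effect exceeded the RTN effect by 0.22, and the NTS effect exceeded the VRC effect by 0.13. By edgeR 0 of the 5 genes passed 0.05 in each, where 0.0436%, 0% and 0.106% of 16050 genes did. COX6B1, at 0.41 between the NTS and RTN effects (SE 0.18, unadjusted p = 0.0277 and adjusted p = 0.477 by edgeR), was the only one of these 15 values with an unadjusted p under 0.05, and DESeq2 called 0. For the 3 differences in the same order, 9.93%, 5.71% and 15.5% of genes had an unadjusted p under 0.05. The NTS against RTN median was 0.18 without room-air number 6. The NTS against VRC median was 0.033 without room-air number 1 and 0.22 without room-air number 4, and the VRC against RTN median was -0.0042 without room-air number 6 and 0.38 without room-air number 5. The effects of the NTS at 24 h lay below those of the VRC by a median of -0.94 and below those of the RTN by -0.52, and at 3 h by -0.55 and -0.49; the rule used these NTS libraries, so these are values without a test.

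Between sites in 7 d room air, where 16.8%, 15.2% and 12.7% of 15591 genes passed an adjusted p of 0.05 (NTS against VRC, NTS against RTN and VRC against RTN), 0 of the 5 genes passed an adjusted p of 0.05 with edgeR and the goat as a block, 0 had an unadjusted p under 0.05, where 31%, 30.5% and 27% of genes did, and DESeq2 called 0. UQCR11 had the lowest adjusted p of the 15 values, 0.255 for the NTS against the RTN, with 8.59, 10.5 and 12.7 CPM in the NTS and 9.36, 12.7 and 34.4 CPM in the RTN. Its difference was -0.51 on the log2 scale (SE 0.29, n = 6 goats). The highest RTN library was number 6, and the next lay at 14.2 CPM. Under other settings or without 1 goat the difference lay between -0.67 and -0.16. UQCRQ had 183.5, 225 and 239 CPM in the NTS, 198, 241 and 280 CPM in the VRC and 185, 201 and 382 CPM in the RTN, and these ranges overlapped broadly. In all 17 tested comparisons together, 0 of 85 values passed an adjusted p of 0.05 by edgeR and 4 had an unadjusted p under 0.05. By chance 4.25 of 85 would fall under it, and in single comparisons 3.26% to 31% of all genes did. The lowest adjusted p in 304 fits under other settings was 0.0769, for UQCRQ in the VRC against the RTN without goat number 6.

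Across the 15 groups, each gene stayed within about a factor of 1.5 to 2.0 between its highest and lowest group mean. The lowest mean of UQCRQ, COX5B and COX6B1 was in the NTS after 24 h of CO2, and the next lowest in the NTS after 3 h of CO2. The highest mean of these 3 genes was in the VRC after 24 h of CO2. UQCRQ averaged 163 ± 12 CPM in the lowest and 267 ± 24 CPM in the highest group (SD, n = 6 each), a ratio of 1.64.

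COX5B averaged 331 ± 42 and 510 ± 32 CPM in its lowest and highest group, a ratio of 1.54, and COX6B1 averaged 228 ± 24 and 409 ± 29 CPM, a ratio of 1.80 (SD, n = 6 each). The top of the order was close, since COX5B averaged 509 ± 85 and COX6B1 408.5 ± 86 CPM in the second group, the RTN after 3 h of CO2. Both differ from the VRC mean after 24 h of CO2 by far less than 1 SD. The order is a description, since the NTS libraries chose the genes.

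UQCR11 and COX17 followed another order, in which a group of the 7 d goats was lowest and the NTS after 24 h of CO2 came next. This order runs over both batches, so batch and duration cannot be told apart in it. Means of UQCR11 lay at 10.5 to 15.8 CPM in the 7 d groups, against 10.8 to 21.1 CPM in batch 1. Those of COX17 lay at 52.9 to 82.9 CPM, against 58.0 to 101.5 CPM. UQCR11 was lowest in the NTS in 7 d room air, at 10.5 ± 1.7 CPM, with the NTS after 24 h of CO2 next, at 10.8 ± 3.6 CPM, and highest in the RTN after 3 h of CO2, at 21.1 ± 5.9 CPM (SD, n = 6 each). COX17 was lowest in the RTN after 7 d of CO2, at 52.9 ± 10.5 CPM, then in the NTS after 24 h of CO2, at 58.0 ± 19.9 CPM, and highest in the NTS in 24 h room air, at 101.5 ± 41.6 CPM. The mean of COX17 in the NTS in room air was followed by 101 ± 8.1 CPM in the VRC after 24 h of CO2, and these 2 means differ by far less than the SD of the first.

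The spread between goats within a group was also described. It was taken as the SD, over the 6 libraries, of the mean log2 CPM of the 5 genes. In the VRC it was 0.084 after 24 h of CO2, against 0.38 in room air, and 0.072 after 7 d of CO2, against 0.36 in room air. All 5 genes had the lower SD after CO2 in both, where 61.9% and 58.2% of 16630 genes did. Without the farthest library of each group, the SD in the VRC was 0.044 after 24 h of CO2, against 0.315 in room air, and 0.034 after 7 d of CO2, against 0.18 in room air. After 3 h of CO2 in the VRC it was 0.41, against 0.38 in room air, and 1 of the 5 genes had the lower SD after CO2, where 54.9% of genes did.

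In the RTN the SD was 0.16 after 7 d of CO2, against 0.51 in room air, and 0.16 after 24 h of CO2, against 0.28 in room air, with all 5 genes lower in each, where 60.5% and 49.8% of genes were. After 3 h of CO2 in the RTN it was 0.315, against 0.28 in room air (0.23 against 0.18 without the farthest libraries), and 2 of the 5 genes were lower, where 47.9% of genes were. Without the farthest library of each group, the SD in the RTN was 0.11 after 7 d of CO2, against 0.17 in room air, and 0.065 after 24 h of CO2, against 0.18 in room air. In the NTS it was 0.13 after 3 h of CO2 and 0.26 after 24 h of CO2, against 0.36 in room air, and it was 0.15 after 7 d of CO2, against 0.16 in 7 d room air. Without the farthest library of each group, the NTS values of batch 1 were 0.059 after 3 h of CO2 and 0.21 after 24 h of CO2, against 0.14 in room air, so the order of 24 h of CO2 and room air turned. In the NTS the SD was lower after CO2 for all 5 genes at 3 h, for 3 at 24 h and for 2 at 7 d, where 36.1%, 56.3% and 63.6% of genes were. No test of these spreads was made.

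**Figure D3:**
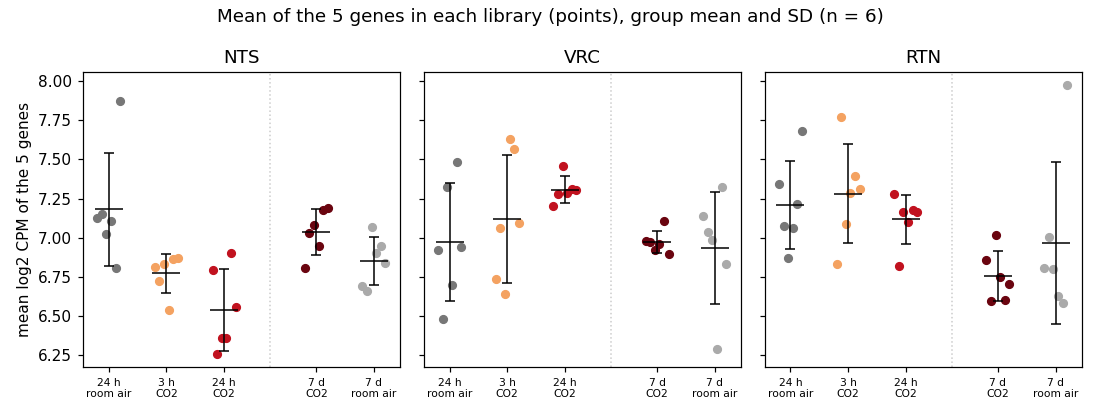
Mean log2 CPM of the 5 genes (y axis) in each library (points) by exposure at the NTS, VRC and RTN, with the mean and SD of 6 libraries as bars. The VRC libraries after 24 h and 7 d of CO2 sit close together (SD 0.084 and 0.072), while those in room air spread over an SD of 0.38 and 0.36.

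The 5 genes moved together from library to library. To describe this, each library's log2 CPM was taken as its deviation from the mean of its group, over the 72 libraries other than the NTS of batch 1. UQCRQ, COX5B and COX6B1 formed a close group with correlations of 0.92 to 0.95, although UQCRQ belongs to complex III and the others to complex IV. UQCR11 and COX17 formed another, with a correlation of 0.91 (Spearman 0.80).

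Between the groups the correlations were lower, at 0.76 to 0.82. Among the 16629 other genes of the table, COX6B1 ranked 2nd and COX5B 10th in correlation with UQCRQ, while UQCR11 and COX17 ranked 160th and 138th. COX17 ranked 14th for UQCR11, but UQCR11 ranked 44th for COX17. UQCRQ ranked 16th for COX5B and 12th for COX6B1, while COX6B1 ranked 4th for COX5B and COX5B 10th for COX6B1. The median correlation of all genes with UQCRQ was -0.016. These values are descriptions over 72 libraries that differ in depth and come from 2 batches. Without the 2 farthest libraries the lowest value within the first group was 0.905 and that of UQCR11 with COX17 was 0.87.

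UQCR11 and COX17 also deviated over a wider range. Their within-group SD of log2 CPM was 0.375 and 0.39, against 0.25 to 0.27 for the other 3 and 0.29 as the median of all genes. The slope of a gene's deviation on the mean deviation of the other 4 was 1.2 and 1.3 for UQCR11 and COX17, against 0.74 to 0.82 for the others. In the 18 NTS libraries of batch 1, which include those that chose the genes, UQCR11 with COX17 correlated at 0.94 and UQCRQ with UQCR11 at 0.55, while COX17 correlated with COX5B at 0.79 and with COX6B1 at 0.795. Without the 2 farthest libraries COX17 with COX6B1 stood at 0.71 and UQCRQ with COX5B at 0.65. COX17 with UQCRQ stood at 0.34. UQCR11 stood at 0.88 with COX17, against 0.25 with UQCRQ, 0.39 with COX5B and 0.37 with COX6B1. The division into 2 groups was thus kept only in part there, for UQCR11 but not for COX17.

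**Figure D4:**
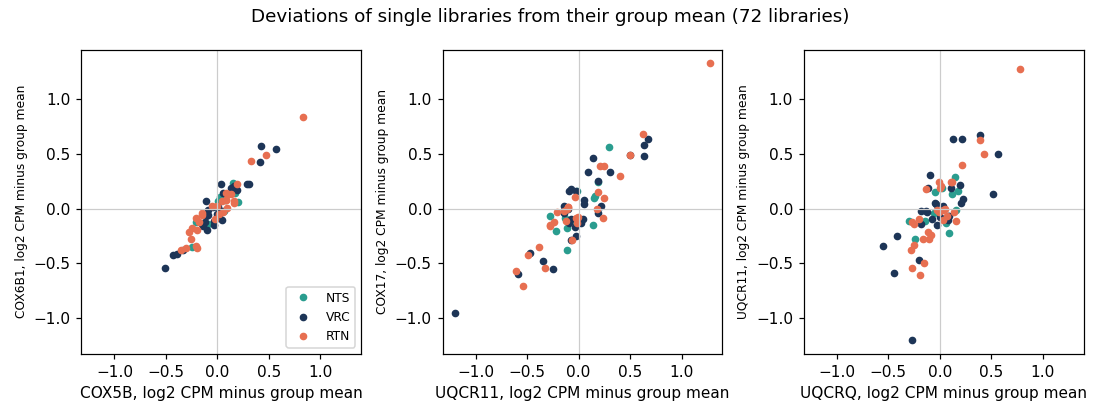
Deviation of each library's log2 CPM from its group mean for COX5B and COX6B1 (left), UQCR11 and COX17 (middle) and UQCRQ and UQCR11 (right) in 72 libraries (points), on equal axes. The points follow a narrow line on the left (Pearson 0.95) and in the middle (0.91), where they reach farther out, and scatter more on the right (0.76).

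The member mean bore little relation to depth and the number of genes detected across these 72 libraries. Its deviation correlated at -0.11 with the log2 total of counts and at -0.041 with the number of genes detected. With the share of counts in the 100 highest genes it correlated at 0.20 (Spearman 0.26). None of these is a measure of RNA quality. A goat whose member mean was high at 1 site was not generally high at another: over 30 goats the correlations between sites were -0.25 for NTS and VRC, 0.20 for NTS and RTN (-0.0078 without the 2 farthest goats) and 0.067 for VRC and RTN. Number 6 of 24 h room air is 1 goat at all sites, and its member mean deviated by 0.69 in the NTS, 0.47 in the RTN and -0.037 in the VRC. These too are descriptions.

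The genes whose deviations ran closest to the mean of the 5, among linked symbols, are given here as the 10 of highest correlation. They were MICOS10, of the complex that shapes the cristae, with a correlation of 0.97, then NDUFS5 at 0.96 and NDUFA6 at 0.955, both of complex I. ROMO1, a small inner-membrane protein, and RPL27 and RPS10, of the ribosome, followed at 0.95. NDUFA2 at 0.94, POLR2L of RNA polymerase at 0.93, NDUFA7 at 0.93 and ATP5IF1, the inhibitor of the ATP synthase, at 0.93 complete the 10. They ranked 3rd to 24th among all 16630 genes, whose median correlation was -0.017. Linked symbols other than the members had a median of 0.076, and 28 of the 50 genes of highest correlation carried no linked symbol. Of the 233 linked symbols other than the members, 108 are entries of the authors' deposited table of the NTS at 24 h, 90 of them lower, so this order depends on that choice.

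The other genes of the respiratory chain were looked up by list. In complex III, UQCRQ and UQCR11 were linked of 12 subunits, and UQCC6 of 9 assembly factors. In complex IV, COX5B, COX6B1 and COX1 were linked of 20 subunits, and COX17 of 25 genes for assembly and copper delivery. In complex I, 6 of 44 subunits (NDUFA2, NDUFA6, NDUFA7, NDUFA13, NDUFB4 and NDUFS5) were linked, and ATP5IF1 of 20 ATP synthase genes.

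All 6 complex I genes and all 14 linked ribosomal genes are lower entries of the authors' deposited table of the NTS at 24 h, so their NTS values at 24 h were fixed by the choice that gave them a symbol, and those at 3 h share libraries with it. The median log2 change of the complex I genes was -0.55 in the NTS after 24 h of CO2, 0.34 in the VRC after 24 h, -0.11 in the RTN after 24 h, 0.16 in the NTS after 7 d and -0.25 in the RTN after 7 d. The 14 cytosolic ribosomal genes had medians of -0.70, 0.37, -0.058, 0.14 and -0.28 for the same comparisons. Neither list had a gene past an adjusted p of 0.05 by edgeR in a tested CO2 comparison, where the share of genes called was at most 0.817%, and the lowest adjusted p was 0.189 for complex I and 0.107 for the ribosomal genes. Over the 72 libraries the mean deviation of the 6 complex I genes correlated at 0.98 with that of the 5 genes, and that of the 14 ribosomal genes at 0.93.

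UQCC6, an assembly factor of complex III, deviated with the 5 genes at a correlation of 0.685. It had 8.22, 8.69 and 13.2 CPM in the NTS after 24 h of CO2, against 10.5, 14.5 and 17.7 CPM in room air, with a change of -0.52 (SE 0.15). The groups overlapped. COX1, the catalytic subunit of complex IV encoded in mitochondrial DNA, had the opposite sign: its deviation correlated at -0.52 with that of the 5 genes (Spearman -0.41, and -0.475 without the 2 farthest libraries).

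COX1 had 217, 234 and 390 CPM in the VRC after 24 h of CO2, against 326, 880 and 1410 CPM in room air, a log2 change of -1.81 (SE 0.45, n = 6 each). In the NTS it had 130, 1109 and 1629 CPM after 24 h of CO2, against 83.4, 323 and 554 CPM in room air, a change of 1.71 (SE 0.63). Its libraries spread far more widely than those of the 5 genes, and its changes had the opposite sign to those of the 5 genes at these sites. In the RTN at 24 h its change was -0.55 (SE 0.47), below 0 as were those of the 5 genes. COX1 is an entry of the authors' deposited tables of the NTS and the VRC at 24 h and UQCC6 of that of the NTS at 24 h, so these changes were fixed by the choice and are descriptions.

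**Figure D5:**
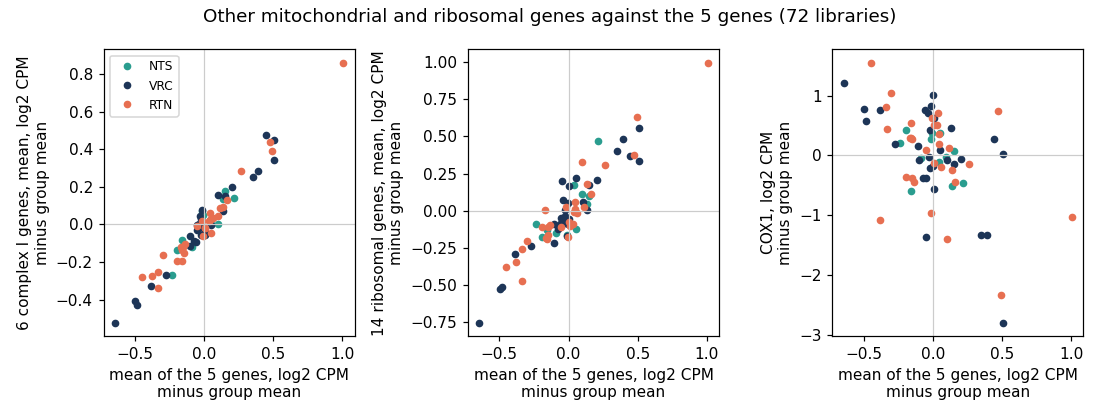
Deviation from the group mean of the mean log2 CPM of the 5 genes (x axis) against the mean of 6 complex I genes (left), the mean of 14 ribosomal genes (middle) and COX1 (right) in 72 libraries (points, coloured by site). The complex I and ribosomal genes rise along a line (Pearson 0.98 and 0.93), while COX1 scatters and slopes down (-0.52).

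Of 50 markers of 11 cell types, 10 were linked, so cell content was covered only in part, and no linked marker was at 0 in a whole group. In the NTS the 2 linked erythroid markers of 5, HBQ1 and HEMGN, summed to 8.14 to 19.2 CPM after 24 h of CO2, against 11.9 to 25.2 CPM in room air. The 2 linked microglial and myeloid markers of 6, AIF1 and CD14, summed to 35.8 to 86.6 CPM after 24 h of CO2, against 62.2 to 116 CPM in room air. Within each list the markers went opposite ways. In the NTS at 24 h, HBQ1 had a log2 change of -0.82 (SE 0.22) and HEMGN of 1.88 (SE 0.55), and AIF1 had -0.64 (SE 0.21) and CD14 0.84 (SE 0.24; n = 6 each). Over the 72 libraries HBQ1 and AIF1 correlated with the mean of the 5 genes at 0.515 and 0.385, and HEMGN and CD14 at -0.27 and -0.27. These 4 genes are entries of the authors' deposited table of that contrast, so their changes there were fixed by the choice, and their part in the values of the 5 genes was not tested.

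The 2 linked oligodendrocyte markers of 6 were OLIG1 and OLIG2. In the VRC they summed to 21.5 to 45.4 CPM after 24 h of CO2, against 96.5 to 147 CPM in 24 h room air. These libraries did not overlap, and no share over all genes was taken for this. That room-air group had the highest median of the 15 groups, 123 CPM, against 37.4 CPM after 24 h of CO2. In 7 d room air, of batch 2, the VRC median was 37.7 CPM. OLIG1 had a log2 change of -1.91 (SE 0.43) in the VRC after 24 h of CO2 against room air. Both genes, and TTR, are entries of the authors' deposited table of that contrast, so these values are descriptions. Across the 72 libraries OLIG1 and OLIG2 correlated with the mean of the 5 genes at 0.032 and 0.067. TTR, the 1 linked marker of 3 for ependyma and choroid plexus, lay at 1.39 to 163 CPM in the VRC after 24 h of CO2, against 0.485 to 2.59 CPM in room air. The medians of TTR there were 11.7 and 1.99 CPM. The part of these markers in the VRC values of the 5 genes was not tested.

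The 2 linked endothelial markers of 7, THBD and NOS3, had higher sums after 3 h of CO2 than in room air. In the NTS they summed to 26.9 to 66.3 CPM after 3 h and 16.1 to 52.5 CPM after 24 h of CO2, against 17.6 to 26.8 CPM in room air, and in the VRC to 33.0 to 55.4 CPM after 3 h of CO2, against 14.9 to 29.9 CPM in room air. In the RTN they summed to 27.4 to 42.2 CPM after 3 h of CO2, against 11.5 to 22.2 CPM in room air. The 3 h and room-air libraries did not overlap at any site, in the NTS only narrowly, and no share over all genes was taken for this. Across the 72 libraries THBD and NOS3 correlated with the mean of the 5 genes at -0.38 and -0.079. PRPH, the 1 linked marker of 4 for motor and visceral motor neurons, lay at 1.90 to 35.5 CPM in the NTS after 24 h of CO2, against 3.58 to 570 CPM in room air. The medians of PRPH there were 3.03 and 5.05 CPM. THBD and NOS3 carry a symbol through the authors' deposited tables at 3 h and PRPH through that of the NTS at 24 h, so these values too are descriptions. The part of these markers in the values of the 5 genes was not tested.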

How the data were processed

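Raw counts for Ensembl goat genes in 90 libraries were deposited by the authors, and 0 columns were unmapped. The submitters' processing notes name STAR 2.7.10b, fastp 0.24.0, edgeR 4.6 and featureCounts 2.0.6. Build and annotation: not given in the sources used here. Gene tables, also deposited by the authors, give log2 fold changes and log2 mean abundances, a likelihood ratio as a score, and p-values with their FDR, per the file headers. Of 342 deposited entries, 341 matched 1 gene of a likelihood ratio refit (edgeR, minimum count 5, tolerance 1e-06 in mean log2 CPM), which linked 238 symbols. The members and all gene and marker lists were chosen with earlier results of these data known.

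Tests were run with edgeR 4.0.16 under R 4.3.3 (quasi-likelihood F test, glmQLFit with robust estimation, filterByExpr, TMM factors) and Benjamini-Hochberg adjustment over all genes tested, with a threshold of 0.05. CO2 and time comparisons used the libraries of 1 site and batch. Site comparisons used the goat as a block: residuals of the same number at another site correlated at a median of 0.283, against -0.0507 for other numbers, and the best match had the same number in 177 of 180 cases. Exposure groups hold different goats, and between them same-numbered libraries correlated above 0.1 in every pair only for the NTS at 3 h against room air (lowest 0.104, from the data alone). Log2 CPM for deviations used a prior count of 2. Named genes are the 5 members, every linked gene of the lists and the 10 linked symbols closest to the member mean. The fitting procedure was tested on simulated data. Alternatives were DESeq2 1.42.0, limma 3.58.1 voom, RLE factors, other filters, other libraries in the fit, the replicate number as a block and leaving out each library. Replicates are separate goats, and no pair of libraries held identical counts.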

Additional observations from a re-analysis of the deposited data

Results flagged for a closer look

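Single libraries far from the other 5 of their group were screened in 75 groups of gene, site and exposure, by the gap to the nearest library over the range of the group, against Dixon's critical value for 6 samples. Chance alone sets apart about 1 in 20 such groups. In the RTN in 7 d room air, number 6 lay highest for all 5 genes: UQCRQ 382 CPM (next 232), UQCR11 34.4 CPM (next 14.2), COX5B 830 CPM (next 495), COX6B1 584 CPM (next 360) and COX17 156 CPM (next 60.9). In the NTS in 24 h room air, number 6 lay highest for UQCR11 at 33.2 CPM (next 17.45), COX5B at 717 CPM (next 443), COX6B1 at 474 CPM (next 328) and COX17 at 185 CPM (next 100.3). After CO2, number 3 lay apart for COX6B1 in the VRC at 24 h, at 464 CPM (next 411.5), and in the RTN at 7 d, at 320 CPM (next 275). The goats numbered 6 in 24 h and in 7 d room air are different animals. The 5 genes move together between libraries, so the values of 1 library are not separate observations.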

How the results depend on the processing

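None of 304 other fits of the 17 tested comparisons called any of the 5 genes, 198 of which left out a library or goat. Leaving out 1 goat moved the median NTS against RTN difference in 7 d room air over -0.22 to 0.055 (main -0.11), the upper value without number 6, and the median NTS minus RTN effect at 7 d over 0.18 to 0.52 (main 0.41), the lower value without room-air number 6. Without 1 goat the median VRC minus RTN effect at 24 h moved over 0.235 to 0.57 (main 0.34). Leaving out 1 library moved the median of the VRC at 24 h over 0.18 to 0.40 (main 0.26). The cause was not tested. Uncalled medians also changed sign without 1 library for the RTN at 3 h and 24 h and the VRC at 7 d. Without 1 goat, those of the VRC against the RTN in 7 d room air and of the VRC minus RTN effect at 3 h and 7 d did so.

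With the replicate block, the median change was -0.57 in the NTS at 24 h, 0.17 in the NTS at 7 d, 0.29 in the VRC at 24 h and -0.24 in the RTN at 7 d, and no member was called in the 3 of these that were tested. Of all genes in the NTS at 24 h, 0 passed in the fit reported, 13 with the block and 148 without the 5 libraries that stood apart. Exposure groups hold different goats. The NTS median at 3 h was -0.39 with the block. Low counts limit UQCR11 most.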
